A study of Sus scrofa with 22 samples.

Results

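The sequences described here are shortened forms of pig microRNAs (miRNAs): each one is the start of the most-read sequence of its miRNA, with 1 or more bases missing at the 3′ end. They were chosen by counts. For each miRNA name, the sequence with the largest count summed over all 22 libraries was taken as the leading sequence, and every other sequence of that name that was a shorter beginning of it was a member. By this rule 414 of 8409 named sequences were trimmed sequences. They belonged to 167 of 250 miRNA names, and the other 83 names had none. The main readout was the number of trimmed reads per 100 leading reads, which sets the shortened molecules of a miRNA against its leading form in the same library.

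Small RNA was sequenced from the subcutaneous fat of 22 female pigs aged 6 months of 3 breeds, with fat classed in the labels as thick or thin. The groups were Hampshire with thick fat (5 libraries) and thin fat (2), Pietrain with thick fat (4) and thin fat (3), and Large White with thick fat (4) and thin fat (4). The labels name no treatment or genotype and give no thickness in millimetres. Each breed was deposited as a table of its own, so a difference between breeds and a difference between tables cannot be told apart.

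Named reads per library ranged from 430712 to 2313457 in Hampshire, from 758597 to 3136842 in Pietrain and from 557807 to 2730039 in Large White. Trimmed sequences took 7.77% to 10.16% of reads in Hampshire, 9.05% to 10.0% in Pietrain and 8.57% to 9.83% in Large White. The smallest count above 0 was 6 in each library, so a 0 can stand for up to 5 reads. Against the labelled tissue, adipocyte-rich miRNAs were abundant in every library. Only 3 epithelial and skin miRNAs were found of 6 listed. Their summed level in CPM, counts scaled to library size, had a median of 4.45 in Hampshire (0 to 196). The median was 0 in Pietrain (0 to 470.6) and 0 in Large White (0 to 26.9). This sum leaves out miRNAs that were not listed, so it does not exclude epithelial cells in these samples. One label conflict bears on the Large White fat classes. Fold changes refitted by the labels correlated with those in the authors' deposited table at r = 1 across 5391 sequences in Hampshire and 7039 in Pietrain, but at r = 0.652 across 6796 in Large White. There the correlation was r = 1 once thick fat replicate 1 and thin fat replicate 1 were exchanged. These correlations run across sequences, which are not independent replicates. The labels were kept as given, and results with the exchange stand in the closing section.

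A miRNA guides its protein partner to messenger RNAs mainly through its seed, the bases near the 5′ end. A molecule shortened at the 3′ end keeps that seed. The 3′ ends of mature miRNAs vary because the enzymes Drosha and Dicer can cut at neighbouring positions, because exonucleases can remove bases and because terminal transferases can add them. In fat, miR-148a and miR-143 are known as promoters of adipocyte formation and miR-27 as a repressor, from work on mouse and human cells. miR-126 belongs to blood vessel endothelium.

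The first 4 ladders of leading and trimmed sequences show the forms with up to 3 bases missing and how differently the reads divide among them. They are printed 5′ to 3′ as deposited, with the last base in capitals, since that is where they differ.
miR-126-3p leading: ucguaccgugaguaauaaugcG
miR-126-3p 1 base missing: ucguaccgugaguaauaaugC
miR-126-3p 2 bases missing: ucguaccgugaguaauaauG
miR-126-3p 3 bases missing: ucguaccgugaguaauaaU
miR-181a leading: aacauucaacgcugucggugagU
miR-181a 1 base missing: aacauucaacgcugucggugaG
miR-181a 2 bases missing: aacauucaacgcugucggugA
miR-181a 3 bases missing: aacauucaacgcugucgguG
miR-23b leading: aucacauugccagggauuaccacU
miR-23b 1 base missing: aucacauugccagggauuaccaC
miR-23b 2 bases missing: aucacauugccagggauuaccA
miR-23b 3 bases missing: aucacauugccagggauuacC
miR-148a-3p leading: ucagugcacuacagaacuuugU
miR-148a-3p 1 base missing: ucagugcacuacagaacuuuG
miR-148a-3p 2 bases missing: ucagugcacuacagaacuuU
miR-148a-3p 3 bases missing: ucagugcacuacagaacuU

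A second set holds miRNAs that recur in the breed comparison, each with its leading form and 1 or 2 trimmed forms. Not all of them were called in the ratio test, and other called miRNAs are not printed in this set.
miR-194a leading: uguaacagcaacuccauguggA
miR-194a 1 base missing: uguaacagcaacuccaugugG
miR-542-3p leading: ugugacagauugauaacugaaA
miR-542-3p 1 base missing: ugugacagauugauaacugaA
miR-542-3p 2 bases missing: ugugacagauugauaacugA
miR-27b-3p leading: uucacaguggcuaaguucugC
miR-27b-3p 1 base missing: uucacaguggcuaaguucuG
miR-27b-3p 2 bases missing: uucacaguggcuaaguucU
miR-27a leading: uucacaguggcuaaguuccG
miR-27a 1 base missing: uucacaguggcuaaguucC
miR-101 leading: uacaguacugugauaacugA
miR-101 1 base missing: uacaguacugugauaacuG
miR-101 2 bases missing: uacaguacugugauaacU
miR-148b-3p leading: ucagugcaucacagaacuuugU
miR-148b-3p 1 base missing: ucagugcaucacagaacuuuG
miR-221-3p leading: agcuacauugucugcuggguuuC
miR-221-3p 1 base missing: agcuacauugucugcuggguuU
miR-19b leading: ugugcaaauccaugcaaaacugU
miR-19b 1 base missing: ugugcaaauccaugcaaaacuG
miR-214-3p leading: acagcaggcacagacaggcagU
miR-214-3p 1 base missing: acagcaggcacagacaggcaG

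Leading sequences of the families that recur below are shown with the seed, bases 2 to 8, in capitals. Members of a family share it, and trimmed members keep it.
let-7a: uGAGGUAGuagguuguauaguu
let-7f-5p: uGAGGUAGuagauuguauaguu
let-7g: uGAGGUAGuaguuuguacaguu
miR-148a-3p: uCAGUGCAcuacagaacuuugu
miR-148b-3p: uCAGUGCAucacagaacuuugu
miR-152: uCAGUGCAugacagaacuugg
miR-27a: uUCACAGUggcuaaguuccg
miR-27b-3p: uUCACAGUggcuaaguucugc
miR-140-3p: aCCACAGGguagaaccacggac
miR-204: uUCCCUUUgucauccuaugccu
miR-32: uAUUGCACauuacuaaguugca

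Over all libraries the trimmed sequences held 3418917 reads, which was 9.24% of named reads, or 16.8 trimmed reads per 100 leading reads. Leading sequences held 54.9% of reads. Sequences extended at the 3′ end were more numerous (1253) and came to 25.1 reads per 100 leading reads, and 1633 sequences of the leading length with 1 base changed came to 25.7. Loss of a single base dominated: 159 members lacked 1 base and held 73.2% of member reads. The 120 members that lacked 2 bases held 18.8%, the 87 that lacked 3 held 5.21%, the 38 that lacked 4 held 2.72%, and the 8 that lacked 5 held 0.0884%. The 2 that lacked 6 held 0.0145%. Members were 17 to 24 bases long. Of the 414, 155 were present in all 22 libraries and 27 in 1 library.

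The leading sequence was a close choice for some names. It tied with an extended sequence for 3 names of few reads (miR-215, miR-330 and miR-432-5p), and the alphabetically first sequence was kept. For miR-149 the leading sequence had 85 reads and a trimmed sequence had 82, so these exchange places with a handful of reads. Margins were also small for some well-read names. Against an extended sequence, miR-195 had 4283 leading reads to 4106, miR-152 83112 to 75917 and miR-101 21384 to 17639. Against a trimmed sequence, miR-125b had 92710 to 81608. The ratios of such names depend on which form is taken as leading. Another 15 members, with 0.571% of member reads, could also be read as the start of another name's leading sequence, such as miR-27a with 2 bases missing, which is also the start of miR-27b-3p.

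The 10 most-read supplied 70.8% of all member reads. miR-126-3p, the endothelial miRNA, had 546718 trimmed against 540150 leading reads. miR-143-3p, abundant in smooth muscle and fat, had 311049 against 1163455. Of the let-7 family, which marks differentiated cells, let-7a had 299272 trimmed against 1218546 leading reads, let-7f-5p 294615 against 1092702 and let-7g 120290 against 706079. The other 5 were miR-100 (234466 against 305369), miR-21 (230600 against 401662), miR-30a-5p (144550 against 233836), miR-27b-3p (125651 against 348004) and miR-125b (114601 against 92710). Trimmed forms of miR-126-3p and miR-125b thus outnumbered their leading forms, while those of miR-143-3p and let-7a stayed well below.

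For the tests, 93 names were used that averaged at least 10 trimmed reads per library and had leading reads in every library. They held 279 members and 90.7% of member reads. A further 24 names averaged 10 trimmed reads but had a library without leading reads. miR-21 was among these because Large White thick fat replicate 3 had none of its forms, and miR-214-3p because all 7 Hampshire libraries were at 0. The median name had 26.8 trimmed per 100 leading reads (quartiles 12.5 and 58.5). Summed over the 22 libraries, 6 names had more trimmed than leading reads: miR-126-3p (101.2 per 100), miR-222 (112), miR-1468 (116), miR-486 (117), miR-125b (124) and miR-181a (127). In at least 1 library this held for 23 names. At the other end 23 names were below 10, the lowest being miR-148a-3p (0.453 per 100), miR-92a (1.52) and miR-24-3p (1.61).

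The ladders differed in shape. miR-126-3p had 66.2 reads per 100 leading reads with 1 base missing and 34.2 with 2, but 0.820 with 3. miR-125b, a conserved regulator of cell differentiation, fell away in the same order, with 88.0, 32.0 and 3.55. miR-181a, best known from lymphocytes, had its most-read trimmed form at 2 bases missing, with 37.4, 58.5 and 31.5 per 100 for 1, 2 and 3 bases. miR-23b had it at 3 bases, with 19.7, 16.6 and 47.6. The most-read member lacked 1 base in 78 names, 2 bases in 11 and 3 bases in 4. miR-148a-3p, the miRNA with the most leading reads, had few shortened forms at any length. Per 100 leading reads, 0.303 lacked 1 base, 0.0790 lacked 2, 0.0376 lacked 3 and 0.0338 lacked 4. Forms extended at its 3′ end are not counted in these values.

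Bases at the end of the leading sequence were described with no test. Names whose leading sequence ended in G had a median of 41.0 trimmed per 100 leading reads (16 names), against 36.0 for A (13 names), 28.4 for C (16 names) and 22.0 for U (48 names). Names marked as the 3p arm had a median of 40.7 (18 names), against 26.2 for the 5p arm (24 names) and 26.4 where the name gives no arm (51 names). Of the 159 members with 1 base missing, 79 had lost a U, 34 a C, 24 an A and 22 a G. These classes overlap with length and family, which they share.

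The first comparison asked whether fat with thick and thin labels differed in trimming within each breed. In the ratio test no miRNA passed in any breed. The closest were miR-23a, which shares a cluster with miR-27a, and miR-221-3p, both with fewer trimmed forms in Pietrain thick fat. In Pietrain thick fat, miR-23a had 21.7, 22.5, 25.2 and 26.0 trimmed per 100 leading reads, against 29.6, 46.8 and 62.0 in Pietrain thin fat. The thick libraries thus lay below the thin ones with no overlap, but the difference did not pass adjustment (log2 ratio −0.90 ± 0.26 SE, edgeR adjusted p = 0.110). miR-23a was picked for its small p among 93 names, and other names with such separation were not counted. miR-221-3p had 66.8, 77.1, 90.3 and 129 per 100 in thick fat, against 123, 150 and 176 in thin fat, with 1 thick library inside the range of the thin ones (−0.82 ± 0.24 SE, edgeR adjusted p = 0.110). Single libraries decided both: miR-23a passed without Pietrain thin fat replicate 1 (−1.18, edgeR adjusted p = 0.0127) and miR-221-3p without Pietrain thick fat replicate 4 (−0.97, edgeR adjusted p = 0.0419).

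Other miRNAs named by the same rule moved by less or rested on few reads. In Pietrain miR-29a gave a log2 ratio of 0.54 and miR-150 one of 0.32. In Large White miR-155-5p gave 0.25, miR-20a 0.44, miR-140-5p −0.32 and miR-24-3p −0.27, each with an edgeR adjusted p of 0.991. In Hampshire, with 2 thin libraries, miR-7134-5p had 19.1, 32.7, 46.1, 53.3 and 58.8 trimmed per 100 leading reads in thick fat, against 12.0 and 23.1 in thin fat (1.23 ± 0.36 SE, edgeR adjusted p = 0.234). The groups overlapped at the lowest thick library. miR-204, a miRNA linked to the choice between bone and fat cells, was at 0 trimmed reads in each of the 2 thin libraries and in 2 of the 5 thick libraries, so its ratio there rests on the floor of the tables. miR-27a and miR-24-3p gave −0.54 and −0.46 in Hampshire (edgeR adjusted p = 0.326 each). Without Hampshire thin fat replicate 2, which leaves 1 thin library, miR-27a gave −0.96.

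The ratio test by edgeR called 0 of 93 names (0.0%) in each of the 3 fat comparisons, in the comparison over breeds and in the test of whether the fat difference varied with breed. At an unadjusted p under 0.05 there were 9 names in Hampshire, 6 in Pietrain, 0 in Large White, 4 over breeds and 8 in the test across breeds. DESeq2 called 0 in each fat comparison it was run on. Over breeds miR-24-3p had the smallest p (−0.29 ± 0.10 SE, adjusted p = 0.625 by edgeR), with miR-148b-3p at −0.35 and miR-20a at 0.52. In the test across breeds miR-27b-3p and miR-23a had the smallest p (adjusted p = 0.190 by edgeR). The 95% interval of the thick to thin ratio lay within 2-fold for 84 of 93 names over breeds, and for 70 in Hampshire, 76 in Pietrain and 82 in Large White. It lay within 1.5-fold for 75, 37, 51 and 59 names in the same order. For names outside these counts the interval did not exclude a difference of that size.

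Values per library were also compared between fat classes. With each miRNA given equal weight, Pietrain thick fat had a median of 26.0 trimmed per 100 leading reads (range 25.0 to 29.7) against 26.9 in thin fat (24.9 to 28.4). Large White thick fat had 24.4 (22.0 to 27.4) against 27.2 in thin fat (24.1 to 29.0). Hampshire thick fat had 30.3 (27.8 to 32.5) against 32.7 in thin fat (31.1 to 34.2). The ranges of thick and thin fat overlapped in each breed, and the exact permutation tests passed no threshold (raw p = 0.914, 0.200 and 0.238, two-sided, adjusted p = 0.990, 0.600 and 0.625 over 42 tests). The smallest p these designs allow is 0.0286 in Pietrain and Large White and 0.0476 in Hampshire. After adjustment over 42 tests such a p could pass only beside many other small ones. These tests within 1 breed could therefore hardly call a difference. Over breeds the mean difference, thick minus thin, was −1.61 (exact permutation p = 0.078, adjusted p = 0.408). The smallest p allowed there is 1.94e-05.

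The second comparison set the breeds against each other, with thick and thin fat weighted equally. Hampshire fat carried more shortened forms per leading form for many miRNAs. The let-7 guide strands, the miR-148b and miR-152 pair, miR-27b-3p, miR-140-3p, miR-101, miR-181a and b, miR-194a and miR-542-3p were among those with the higher ratio in Hampshire. The ratio test by edgeR called 31 of 93 names against Large White (33.3%), 29 higher and 2 lower in Hampshire. Against Pietrain it called 33 (35.5%), 28 higher and 5 lower. These comparisons share the Hampshire libraries, so they are given side by side and are not independent. The median log2 ratio over all 93 names was 0.22 against Large White, with 71 names above 0, and 0.12 against Pietrain, with 60 above 0.

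Per library, the median over names was 27.8 to 34.2 trimmed per 100 leading reads in Hampshire (30.9 ± 2.00 SD, n = 7), 24.9 to 29.7 in Pietrain (26.7 ± 1.80, n = 7) and 22.0 to 29.0 in Large White (25.7 ± 2.37, n = 8). The top of both other breeds reached into the lower part of the Hampshire range. Within fat classes the mean difference was 5.76 from Large White (exact permutation p = 5.29e-04, two-sided, the smallest this design allows, adjusted p = 0.0222). From Pietrain it was 4.75 (exact permutation p = 0.00159, adjusted p = 0.0222). Leaving out 1 library at a time, the first call was kept in 20 of 22 cases and lost without Hampshire thin fat replicate 1 (4.40) or Pietrain thick fat replicate 2 (4.44). The Pietrain library is in neither group of that comparison. The names entering the median were chosen anew for each set of libraries. Leaving out a library can therefore change which names count, as well as the libraries compared. The call against Pietrain was lost in 13 of 22 cases, with differences of 3.47 to 5.53 and an adjusted p of up to 0.206.

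With all reads pooled the breeds did not pass the test, and a single miRNA held a large part of the denominator. The pooled value was 16.4 ± 1.78 in Hampshire, 17.8 ± 0.854 in Pietrain and 17.0 ± 1.38 in Large White (SD, n = 7, 7 and 8). Hampshire minus Large White was −0.747 (exact permutation, adjusted p = 0.710) and Hampshire minus Pietrain −1.67 (exact permutation, adjusted p = 0.403). Without miR-148a-3p, whose leading reads are many and whose trimmed reads are few, the pooled value was 26.0 ± 1.24 in Hampshire, 23.7 ± 0.905 in Pietrain and 22.9 ± 1.09 in Large White. The difference then turned to 2.82 from Large White (exact permutation, adjusted p = 0.0167) and 1.97 from Pietrain (exact permutation, adjusted p = 0.0286).

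By the number of bases missing, the breeds differed in the same pooled measure in opposite ways. Forms with 1 base missing came to 11.2 ± 1.27 per 100 leading reads in Hampshire, 13.4 ± 0.608 in Pietrain and 12.6 ± 1.14 in Large White. Hampshire was lower than Pietrain by −2.30 (exact permutation, adjusted p = 0.0222) and differed from Large White by −1.45 (adjusted p = 0.403). Without miR-148a-3p these became −0.17 and 0.69. Forms with 2 bases missing came to 3.79 ± 0.477 in Hampshire, 3.07 ± 0.279 in Pietrain and 2.98 ± 0.248 in Large White. Hampshire exceeded Large White by 0.705 (exact permutation, adjusted p = 0.0444) and Pietrain by 0.591 (adjusted p = 0.120). Leaving out 1 library lost the call with 1 base missing in 9 of 22 cases (−3.15 to −1.44) and the call with 2 bases missing in 17 of 22 (0.554 to 0.855). Forms with 3 or more bases missing passed in no comparison with all miRNAs included. Without miR-148a-3p, Hampshire exceeded Large White by 0.216 and Pietrain by 0.265 with 3 bases missing (exact permutation, adjusted p = 0.0286 and 0.0200), and Pietrain by 1.76 with 2 bases missing (exact permutation, adjusted p = 0.0111).

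The let-7 family, which acts in developmental timing, was the largest seed group tested. let-7g had 21.8 to 25.0 trimmed per 100 leading reads in Hampshire (median 23.8), 15.6 to 18.5 in Pietrain (16.7) and 14.1 to 17.6 in Large White (15.8). All 7 Hampshire libraries lay above every other library. The log2 ratio was 0.60 ± 0.06 SE against Large White (edgeR adjusted p = 1.93e-07) and 0.48 ± 0.06 against Pietrain (edgeR adjusted p = 2.54e-06). let-7f-5p had 32.4 to 39.6 in Hampshire (median 37.3), 25.2 to 29.7 in Pietrain (26.9) and 23.7 to 27.7 in Large White (24.6), again with no overlap. Its log2 ratios were 0.55 and 0.45. let-7a differed less, with 26.8 to 30.8 in Hampshire, 23.7 to 26.7 in Pietrain and 21.0 to 26.0 in Large White (log2 ratios 0.34 against Large White and 0.19 against Pietrain). Of the 8 let-7 guide strands, 6 rose against Large White and 5 against Pietrain, where 29 and 28 of all 93 names rose, none fell, and the median log2 ratios were 0.36 and 0.23.

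In let-7g the form with 2 bases missing differed more between breeds in relative terms than the form with 1. In reads per 100 leading reads the gap was larger with 1 base missing. The forms were not tested against each other. Forms with 1 base missing had medians of 21.8 per 100 leading reads in Hampshire, 15.7 in Pietrain and 15.0 in Large White. Forms with 2 bases missing had medians of 2.09, 0.972 and 0.857 in the same order, with Hampshire libraries at 1.85 to 2.45 and no library of another breed above 1.19.

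miR-148b-3p and miR-152 share the seed of miR-148a-3p. miR-152 had 20.9 to 28.0 trimmed per 100 leading reads in Hampshire (median 24.2), 11.9 to 15.9 in Pietrain (13.0) and 11.6 to 16.5 in Large White (14.2). The lowest Hampshire library lay above the highest of the others. Its log2 ratio was 0.76 ± 0.09 SE against Large White and 0.84 ± 0.09 against Pietrain (edgeR adjusted p = 5.60e-07 and 8.35e-07). miR-148b-3p had 11.8 to 31.1 in Hampshire (median 19.3), 4.14 to 10.9 in Pietrain (10.0) and 5.21 to 13.2 in Large White (9.77), so its Hampshire range overlapped that of Large White. Its log2 ratio was 1.10 ± 0.18 against Large White and 1.25 ± 0.19 against Pietrain (edgeR adjusted p = 3.12e-05 and 2.20e-05). miR-148a-3p itself gave −0.11 ± 0.16 and −0.16 ± 0.17 (edgeR adjusted p = 0.578 and 0.560), with medians of 0.441, 0.452 and 0.430 in Hampshire, Pietrain and Large White. With extended reads as denominator, added after seeing the data, its log2 ratios were 0.75 against Large White and 0.85 against Pietrain (edgeR adjusted p = 1.05e-04 and 5.15e-05).

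miR-27b-3p, which represses the adipocyte regulator PPARG in mouse and human cells, had 39.2 to 66.9 trimmed per 100 leading reads in Hampshire (median 61.4), 25.5 to 49.1 in Pietrain (30.3) and 24.7 to 34.0 in Large White (29.1). Hampshire lay clear of Large White and overlapped with 2 Pietrain thin fat libraries (43.8 and 49.1). The log2 ratio was 0.90 ± 0.11 SE against Large White and 0.67 ± 0.11 against Pietrain (edgeR adjusted p = 5.60e-07 and 4.59e-05). With 1 base missing alone the log2 ratio against Pietrain was 0.29 (edgeR adjusted p = 0.0989). The form with 2 bases missing, shown above with a final U, had 18.1 to 33.4 per 100 in Hampshire, 8.18 to 12.8 in Pietrain and 7.77 to 13.5 in Large White, with no overlap. miR-27a, which shares its seed, gave log2 ratios of 0.23 and 0.30 that did not pass (edgeR adjusted p = 0.190 and 0.0867).

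miR-542-3p and miR-194a had more trimmed than leading reads in Hampshire. miR-542-3p had 129 to 272 trimmed per 100 leading reads in Hampshire (median 233), 63.8 to 106 in Pietrain (80.6) and 57.6 to 110 in Large White (83.6). Its log2 ratios were 1.35 ± 0.16 SE against Large White and 1.42 ± 0.17 against Pietrain (edgeR adjusted p = 5.60e-07 and 8.35e-07). Counts were low, and the lowest Hampshire library had 18 trimmed and 14 leading reads (Wilson 95% interval 64.8 to 255 per 100), so single libraries are imprecise. With 1 base missing alone the differences did not pass (log2 ratios 0.59 and 0.55, edgeR adjusted p = 0.0558 and 0.0954). With 2 bases missing the values were 103 to 189 in Hampshire, 40.9 to 68.4 in Pietrain and 33.3 to 65.0 in Large White.

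miR-194a, best known from liver and gut, had 114 to 267 trimmed per 100 leading reads in Hampshire (median 187), 0 to 67.4 in Pietrain (60.3) and 55.2 to 89.7 in Large White (65.9). The library at 0 was Pietrain thin fat replicate 3, which had 7 leading reads. The log2 ratios were 1.42 ± 0.18 SE against Large White and 1.64 ± 0.19 against Pietrain (edgeR adjusted p = 1.37e-06 and 8.35e-07). Of its 3345 trimmed reads over all libraries, 3144 lacked the final A alone.

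miR-140-3p, abundant in cartilage and other mesenchymal tissue, had 73.5 to 144 trimmed per 100 leading reads in Hampshire (median 106), 48.3 to 60.4 in Pietrain (54.9) and 50.1 to 59.7 in Large White (54.0). Its log2 ratios were 0.86 ± 0.11 SE against Large White and 0.89 ± 0.11 against Pietrain (edgeR adjusted p = 7.97e-07 and 9.49e-07). In Hampshire the leading form used for this ratio was not the most-read one, which starts 1 base earlier at the 5′ end. miR-101, a repressor of the histone methyltransferase EZH2, had 15.2 to 22.8 in Hampshire (median 16.4), 8.28 to 11.5 in Pietrain (10.3) and 7.21 to 12.8 in Large White (9.30). Its log2 ratios were 0.84 ± 0.12 and 0.74 ± 0.13 (edgeR adjusted p = 8.77e-06 and 7.98e-05). Neither range touched those of the other breeds. Such separation held for 11 of 93 names (11.8%): let-7a, let-7f-5p, let-7g, miR-28-3p, miR-365-3p, miR-152, miR-181b, miR-101, miR-140-3p, miR-542-3p and miR-194a. No name (0.0%) had all Hampshire libraries below the others. The calls of miR-140-3p, let-7g, let-7f-5p, miR-152, miR-27b-3p, miR-542-3p and miR-194a against both breeds were kept in 22 of 22 cases with 1 library left out.

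The most-read trimmed miRNAs were not all among those called. miR-126-3p had 96.2 to 121 trimmed per 100 leading reads in Hampshire (median 112), 91.4 to 120 in Pietrain (97.3) and 89.8 to 111 in Large White (99.5), which overlap (log2 ratio 0.13 ± 0.07 SE against Large White, edgeR adjusted p = 0.172). The ranking of the breeds differed between its rungs. With 1 base missing the medians were 62.3 in Hampshire, 66.9 in Pietrain and 66.8 in Large White, and with 2 bases missing they were 47.9, 28.8 and 31.4 in that order. For miR-181a the medians were 34.6, 39.8 and 37.8 per 100 with 1 base missing, and 88.5, 54.0 and 44.7 with 2, in the same order. These rungs were described and not tested one by one. miR-125b (log2 ratio −0.01 ± 0.15 SE), miR-23b (0.07 ± 0.14), miR-30a-5p (0.13 ± 0.11) and miR-486 (0.15 ± 0.21) did not pass against Large White (edgeR adjusted p = 0.946, 0.681, 0.377 and 0.578). Set against extended reads instead, a comparison added after seeing the data, miR-126-3p, miR-125b and miR-30a-5p were higher in Hampshire than in Large White. The log2 ratios were 0.50, 0.36 and 0.39 (edgeR adjusted p = 5.30e-04, 0.00571 and 0.00882). There let-7f-5p did not pass (0.10, edgeR adjusted p = 0.214).

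A few miRNAs had a lower ratio in Hampshire, and apart from miR-497 these calls ended when certain single libraries were left out. miR-32, of the miR-92a seed family, had 21.0 to 37.6 trimmed per 100 leading reads in Hampshire (median 31.5), 34.7 to 50.8 in Pietrain (44.1) and 34.6 to 43.2 in Large White (37.2). Its log2 ratio was −0.37 ± 0.14 SE against Large White and −0.53 ± 0.15 against Pietrain (edgeR adjusted p = 0.0410 and 0.00922). Leaving out 1 library ended the call against Large White in 10 of 22 cases (−0.42 to −0.31) and that against Pietrain in 1, without Hampshire thin fat replicate 2 (−0.48). miR-497 and miR-195, a pair of the miR-15 seed family that restrains the cell cycle, were lower than in Pietrain. miR-497 had 17.7 to 40.3 in Hampshire (median 24.0) and 31.0 to 65.3 in Pietrain (53.2), at −0.88 ± 0.21 (edgeR adjusted p = 0.00230, kept in 22 of 22 cases).

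miR-195 had 10.7 to 25.7 trimmed per 100 leading reads in Hampshire (median 15.2) and 15.5 to 24.4 in Pietrain (21.7), at −0.53 ± 0.18 SE (edgeR adjusted p = 0.0278). It lost the call in 4 of 22 cases, without Pietrain thick fat replicate 1, Pietrain thin fat replicate 2, Hampshire thin fat replicate 1 or Hampshire thick fat replicate 3 (−0.50 to −0.41). miR-185 had 6.79 to 10.8 in Hampshire (median 8.51) and 8.83 to 11.5 in Pietrain (10.5), at −0.35 ± 0.14 (edgeR adjusted p = 0.0444), and lost it in 11 of 22, each without a Hampshire or Pietrain library (−0.40 to −0.29). For miR-195 and miR-185 the direction depended on the denominator. With extended reads as denominator, added after seeing the data, both were higher in Hampshire than in Pietrain. The log2 ratios were 0.64 and 0.68 (edgeR adjusted p = 0.0111 and 0.00415). miR-204 was fitted at −2.80 ± 0.95 against Large White and −2.87 ± 0.95 against Pietrain (edgeR adjusted p = 0.0258 and 0.0245). In 4 of 7 Hampshire libraries it had 0 trimmed reads, and 3 of these had 108 leading reads or fewer, and with limma at a pseudocount of 5 the log2 ratio against Large White was 0.14, so the value depends on how a 0 is treated. It lost these calls without Hampshire thin fat replicate 1 (−2.56 and −2.63) or replicate 2 (−3.02 and −3.08), and against Pietrain also without Pietrain thin fat replicate 2 (−2.63).

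Seed families and lists were counted beside all 93 names, of which 33.3% were called against Large White and 35.5% against Pietrain, with median log2 ratios of 0.22 and 0.12. Counts such as 1 of 3 or 2 of 5 are near those shares. Of 3 names with the seed CAGUGCA, 2 rose against each breed, and of the 3 miR-181 names 2 rose against each. The 4 names of the miR-15 seed group had none higher. The miR-30 list had 1 of 3 higher against each breed, and the miR-10 and miR-99/100 list 2 of 4. Among adipogenesis promoters 0 of 8 rose and 1 fell against Large White, and 2 rose and 1 fell against Pietrain, with median log2 ratios of 0.10 and −0.05. Among adipogenesis repressors 2 of 5 rose against Large White and 1 of 5 against Pietrain (medians 0.30 and 0.30). No list had a member called between fat classes.

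Markers of other cells moved with breed to some extent. The summed level of 2 liver miRNAs, miR-122 and miR-192, had a median of 2714 CPM, counts scaled to library size, in Hampshire (21.3 to 24170), 431.9 in Pietrain (0 to 7217) and 388.8 in Large White (0 to 4678). The 3 skeletal muscle miRNAs found of 6 listed summed to medians of 1080, 509.7 and 404 CPM in that order. The 4 adipocyte-rich miRNAs found of 5 listed summed to 286100, 178900 and 196400 CPM. A large part was miR-148a-3p, whose leading form alone had 211400, 136000 and 143300 CPM in that order. Leading forms of miR-103 (1774, 3721 and 3735) and miR-378 (3961, 4344 and 4206) were lower in Hampshire. That of miR-455-5p was higher (508.6, 233.4 and 315.4). Ranges overlapped between breeds for all 3 sums. Mean read length was 21.8 bases in Hampshire and 21.9 in both other breeds. The part of these in the trimmed ratios was not tested. With the pair of libraries richest in miR-122 left out, the ratio test called 28 names against Large White, 27 of them higher in Hampshire, and 23 against Pietrain, 21 of them higher. Without the 2 Hampshire libraries of shortest mean read length the counts were 29, 28 of them higher, and 23, 21 of them higher. The calls on the per-library median over names were lost against both breeds in either case (exact permutation, adjusted p = 0.113 without the first pair and 0.0750 without the second), as were those with 1 base missing against Pietrain and with 2 bases missing against Large White. In bulk tissue, fewer cells of a type and less RNA per cell cannot be told apart.

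In a few miRNAs the most-read sequence itself differed between breeds. Leading sequences were chosen on sums to which Hampshire gave 24.0% of reads. In Hampshire the leading sequence was the most read for 88 of 93 names. A trimmed sequence was the most read for 4: miR-194a, miR-221-3p and miR-19b with 1 base missing and miR-542-3p with 2. For miR-140-3p it was a sequence of another kind. In Pietrain the leading sequence was the most read for 89 names, and an extended one for miR-101, miR-146b, miR-28-5p and miR-195. In Large White it was the most read for 92, with an extended one for miR-195. Among the 84 names whose leading sequence was the most read in every breed, a subset added after seeing the data, the ratio test by edgeR called 26 names against Large White, 24 of them higher in Hampshire, and 27 against Pietrain, 23 of them higher.

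Longer forms went the other way, in a comparison added after seeing the data. Sequences extended at the 3′ end had medians over names of 23.4 to 35.6 reads per 100 leading reads in Hampshire (27.9), 29.1 to 39.6 in Pietrain (34.5) and 32.5 to 40.6 in Large White (38.2). The same ratio test called 48 of 85 names against Large White (56.5%), 43 lower and 5 higher in Hampshire, and 45 against Pietrain (52.9%), 40 lower and 5 higher. The median log2 ratios were −0.37 and −0.35. It called none (0.0%) in the fat comparisons or between Pietrain and Large White, where unadjusted p under 0.05 occurred for 1 to 9 names.

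Set against each other, trimmed reads per 100 extended reads had a median over names of 64.5 to 82.9 in Hampshire (65.4), 44.2 to 58.5 in Pietrain (51.3) and 43.6 to 56.0 in Large White (48.9). Every Hampshire library lay above every library of the other breeds. Of 64 names the edgeR test called 48 against Large White (75.0%), all higher in Hampshire, and 42 against Pietrain (65.6%), 40 higher and 2 lower. The median log2 ratios were 0.60 and 0.53. No name (0.0%) was called in a fat comparison or between Pietrain and Large White, with 1 to 10 names at an unadjusted p under 0.05. Read ends and breed table move together here, and cannot be told apart.

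Counts of the trimmed sequences themselves, scaled to library size, were tested among all 4054 named sequences that passed a filter on low counts. Of the 414 members 313 passed. Against Large White 45 of 313 were called, 23 higher and 22 lower in Hampshire, where 15.7% of all sequences were called, 3.9% higher and 11.8% lower. Against Pietrain 46 were called, 25 higher and 21 lower, where 20.4% of all were called, 5.5% higher and 14.9% lower. The members' median log2 fold changes were 0.15 and 0.09, against −0.21 and −0.30 over all sequences. Sequences absent from a breed's table counted as 0, and more were absent in Hampshire (3098) than in Pietrain (1450) or Large White (1693). The part of this in the shares and medians was not tested. Without Hampshire thin fat replicate 2 the counts were 27 and 24.

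Among the sequences with the smallest p, miR-27b-3p with 2 bases missing had 1755 to 3031 CPM in Hampshire (median 1966), 894.1 to 1316 in Pietrain (1066) and 789 to 1539 in Large White (932.9). Its log2 fold change against Large White was 1.17 ± 0.17 SE (edgeR adjusted p = 2.75e-05). miR-27a with 1 base missing had 317 to 574 CPM in Hampshire, 160 to 241 in Pietrain and 153 to 274 in Large White (1.16 ± 0.18 against Large White, edgeR adjusted p = 7.98e-05). Here the trimmed form rose while its ratio to the leading form did not pass. The leading form of miR-27a was also higher in Hampshire (2315 CPM against 1327 in Large White). miR-101 with 1 base missing had 53.4 to 111 CPM in Hampshire and 20.6 to 39.6 in Large White (1.44 ± 0.23, edgeR adjusted p = 1.38e-04). With 2 bases missing it had 51.6 to 76.0 in Hampshire and 10.3 to 22.4 in Pietrain (1.85 ± 0.26, edgeR adjusted p = 1.56e-05). None of these ranges overlapped.

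miR-148b-3p with 1 base missing had 96.1 to 260 CPM in Hampshire and 36.8 to 68.3 in Pietrain (log2 fold change 1.81 ± 0.24 SE, edgeR adjusted p = 9.13e-06). miR-148a-3p with 3 bases missing had 91.1 to 141 CPM in Hampshire and 18.9 to 47.4 in Pietrain (1.66 ± 0.25, edgeR adjusted p = 3.65e-05). This short form rose although the summed trimmed forms of miR-148a-3p did not pass in the ratio test. CPM and the ratio are unlike measures, and the leading form was also higher in Hampshire (211400 CPM against 136000 in Pietrain). The 3 lowest against both breeds were forms of miR-214-3p, a stromal miRNA, with 1, 2 and 3 bases missing. They were at 0 in all 7 Hampshire libraries, so no fold is given. Such a 0 can also stand for a sequence absent from the breed's table. The form with 1 base missing had 46.5 to 97.5 CPM in Pietrain and 54.6 to 112 in Large White, and since the leading form was at 0 in Hampshire too, no ratio exists there.

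For fat class, edgeR called 0 of 313 trimmed sequences in each comparison, where 0.0987% of all sequences were called in Pietrain and 0.0% for Large White, Hampshire, over breeds and in the test across breeds. At an unadjusted p under 0.05 there were 30 members in Hampshire, 14 in Pietrain and 5 in Large White, with 18 over breeds and 17 in the test across breeds. DESeq2 called 4, 1, 1 and 3 in the first 4 of these. In the authors' deposited tables, which compare fat classes by DESeq2, 1 sequence passed in Hampshire (0.0185%), 89 in Pietrain (1.26%) and 0 in Large White (0.0%). None of the 357, 373 and 382 trimmed sequences in those tables was among them.

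No miRNA was called between Pietrain and Large White. The ratio test by edgeR called 0 of 93 names (0.0%), with 12 at an unadjusted p under 0.05, and DESeq2 called 0. The median log2 ratio was 0.10. miR-497 had 31.0 to 65.3 trimmed per 100 leading reads in Pietrain and 25.4 to 46.8 in Large White, and miR-185 had 8.83 to 11.5 in Pietrain and 6.51 to 9.43 in Large White, each with overlap. Their log2 ratios were 0.52 ± 0.18 and 0.33 ± 0.11 (SE, edgeR adjusted p = 0.214 each). miR-103 gave −0.28 and miR-24-3p −0.24. The interval lay within 2-fold for 85 names. Among trimmed sequences 0 of 313 were called by edgeR and 1 by DESeq2, where edgeR called 2.71% of all sequences.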

How the data were processed

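Per the labels' protocols, RNA from fat kept in RNAlater was made into libraries with a NEBNext small RNA kit, size-selected on a gel and read from 1 end on a HiScan SQ. The submitters' processing notes name bcl2fastq, FastQC and DESeq2. The sources used here do not name the read trimmer, aligner or miRNA release. The authors deposited read counts per sequence for each breed. Comparisons of fat classes per breed were deposited too, holding, per the file headers, a base mean (signal), log2 fold changes with a test score, and p-values. A refit showed their direction: thin over thick. Unnamed sequences (80 of 8489, 0.0480% of reads) were left out. Sequences absent from a breed's table (3098 in Hampshire, 1450 in Pietrain, 1693 in Large White) were taken as 0.

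Ratios were tested with edgeR 4.0.16, quasi-likelihood (limma 3.58.1, R 4.3.3) on trimmed and leading counts of each library, with library as a block, terms for kind of read within 6 groups, and Benjamini-Hochberg adjustment over names at 0.05. Counts of sequences were tested with edgeR after TMM scaling. DESeq2 1.42.0 and limma on log2 ratios were alternatives. Library values were compared by exact two-sided permutation of libraries within breed or fat class (SciPy 1.17.1), adjusted over 42 tests. Wilson intervals cover counting error only: with no molecular identifiers in the deposited counts, amplified reads may repeat a molecule. The p-values reflect variation among these libraries, which may be technical in part.

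The members and lists were chosen with earlier results of these data known. The text names the 10 miRNAs with the most trimmed reads, the 3 highest and 3 lowest ratios, up to 8 called per direction and comparison (otherwise the 2 of smallest p per direction), and 3 sequences per direction. Others were named after their values were seen. On simulated counts of 93 names 75% of 1.5-fold and 92% of 2-fold changes were found between Hampshire and Large White, and 91% and 94% of those between fat classes over breeds. For 4054 sequences, between the same breeds, these shares were 21.3% at 2-fold and 46.3% at 4-fold.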

Additional observations from a re-analysis of the deposited data

Results flagged for a closer look

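Among 164 groups of 4 or more libraries examined, 9 held a library set far apart from the rest of its group by Dixon's criterion, where chance flags about 1 in 20. For miR-185, Hampshire thick fat replicate 5 had 10.81 trimmed per 100 leading reads against 8.40 to 9.07 in the other 4 libraries, and Large White thick fat replicate 2 had 6.691 against 8.78 to 9.12. For miR-148a-3p, Pietrain thick fat replicate 1 had 0.3518 and Large White thin fat replicate 1 had 0.7653. For miR-148b-3p, Large White thick fat replicate 1 had 5.205 against 9.47 to 10.0. miR-140-5p reached 37.76 in Large White thin fat replicate 3. miR-143-3p reached 31.28 in Pietrain thick fat replicate 4. miR-204 reached 9.091 in Pietrain thick fat replicate 3, on 6 trimmed and 66 leading reads (Wilson 95% interval 4.03 to 20.5). The pooled value for 2 bases missing was 2.65 in Pietrain thick fat replicate 3. Of the libraries concerned, Large White thick fat replicate 1 and thin fat replicate 1 are those of the label conflict.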

How the results depend on the processing

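The labels' numbers pair no libraries. No paired analysis was possible because replicate numbers were given in accession order. The RefSeq mature sequence could not be used as leading sequence here, for want of a sequence table, and was not run. The number of names called in the ratio test between Hampshire and Large White was 26 to 40 over all alternatives and between Hampshire and Pietrain 23 to 35, all within 1.5 times the reported counts.

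In fat comparisons of the ratio test the count of 0 became 1 in Hampshire with all other reads of the name as denominator, with a depth-matched floor and with limma at a pseudocount of 5, 1 over breeds with the floor, and 1 in the test across breeds with the floor or without the 2 libraries richest in miR-122 (added after seeing the data). With 2 or more bases missing 1 name passed between Pietrain and Large White. Among trimmed sequences, DESeq2 called 1, 1, 4 and 3 in Pietrain, Large White, Hampshire and over breeds, and 1 between Pietrain and Large White, as no filter did. A mean count of at least 100 left 26 between Hampshire and Pietrain. In the counts that follow, leaving out a Hampshire thin library leaves 1 library for Hampshire thin fat. Leaving out 1 library at a time, ratio counts ran 0 to 2 in Pietrain, 0 to 1 in Hampshire and 0 to 3 across breeds, and sequence counts 0 to 3 in Hampshire, 27 to 47 and 24 to 57 between Hampshire and Large White or Pietrain, and 0 to 1 between Pietrain and Large White.

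Named log2 ratios turned in sign for miR-185 between Hampshire and Pietrain with the floor (0.0657), miR-204 between Hampshire and Large White with limma at a pseudocount of 5 (0.14), miR-24-3p in Hampshire fat with 1 base missing (0.0507) and miR-150 in Pietrain fat with 2 or more missing (−0.0735).

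Pooled trimmed reads per 100 leading reads, thick minus thin, became −0.0444 in Large White and −0.122 over breeds with the Large White exchange, −0.0450 over breeds without both libraries and −0.00740 without ambiguous members. Without miR-148a-3p they became −0.428 and −0.216, and Hampshire minus Large White and minus Pietrain 2.82 and 1.97. The exchange gave 0.416 for the median over names in Large White fat, −0.0301 for 1, 0.0261 for 2 and 0.0103 for 4 or more bases missing. Without both libraries Hampshire minus Large White with 2 missing was 0.794 (no longer past).
Names with a mean of 100 trimmed reads gave medians of 1.66, 0.992, 1.98 and 1.54 in Pietrain, Large White, Hampshire and over breeds, and 3.11 for Pietrain minus Large White, which then passed (adjusted p = 0.0214, against 0.710 for 1.01 with all tested names). Without miR-148a-3p, 1 base missing gave −0.0800 in Large White fat and 0.694 and −0.170 for Hampshire minus Large White and Pietrain. Hampshire minus Pietrain with 2 missing was 1.76, and 3 missing gave 0.216 and 0.265 against Large White and Pietrain, which then passed (adjusted p = 0.0111, 0.0286 and 0.0200), and 4 or more 0.0664 against Large White.

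Without the 2 Hampshire libraries of shortest mean read length (added after seeing the data) the medians became 0.123 in Pietrain fat, 0.682 in Hampshire fat, 4.71 and 3.78 for Hampshire minus Large White and Pietrain (adjusted p = 0.0750). With 1 missing the values were 0.420 over breeds and −3.32 for Hampshire minus Pietrain, with 2 missing 0.462 and with 3 missing −0.0170 for Hampshire minus Large White, and with 4 or more 0.0176 over breeds and −0.0612 for Hampshire minus Pietrain. Leaving out instead the pair richest in miR-122, the same values were 0.0213, 4.84, 3.75, 0.523, −3.16, 0.553, −0.0414, 0.0259 and −0.0487, with −0.0185 for 3 missing against Pietrain. With either pair left out the breed calls on the median, on 1 missing and on 2 missing were lost (adjusted p = 0.0750, 0.0750 and 0.280 without the shortest, 0.113, 0.113 and 0.336 without the richest in miR-122). The cause of these changes was not tested.

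Leaving out 1 library at a time, pooled values ran −0.407 to 0.919 (Large White fat), −1.48 to 2.91 (Hampshire fat), −0.731 to 0.733 (over breeds) and −1.85 to 0.351 (Hampshire minus Large White). Medians over names ran −1.10 to 0.718 (Pietrain fat), −3.96 to 0.0691 (Hampshire fat), 4.40 to 6.55 and 3.47 to 5.53 (Hampshire minus Large White and Pietrain). With 1 missing they ran −0.203 to 0.900, −1.56 to 1.86 and −0.613 to 0.529 (Large White, Hampshire, over breeds) and −3.15 to −1.44 (Hampshire minus Pietrain). With 2 missing they ran −0.180 to 0.0328 and −0.0780 to 0.123 (Large White, over breeds), 0.554 to 0.855 and 0.440 to 0.741 (Hampshire minus each). With 3 missing they ran −0.0390 to 0.0205 (Large White) and −0.0211 to 0.0422 (Hampshire minus Large White). With 4 or more they ran −0.118 to 0.120, −0.0556 to 0.0238, −0.0771 to 0.0420 and −0.0519 to 0.0672 (Hampshire, over breeds, Hampshire minus each). Depth limits low miRNAs most, since counts of 1 to 5 are absent.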
